A study of Mus musculus with 8 samples.

Results

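The 50 genes described here encode the Wnt signalling proteins that act at or near the cell surface, together with the feedback gene Axin2. They were taken by symbol from the 27179 genes counted in each library: every gene whose symbol is Wnt, Fzd, Dkk or Sfrp followed by a digit, with Frzb, Wif1, Lrp5, Lrp6, Kremen1, Kremen2, Lgr4, Lgr5, Lgr6, Rnf43, Znrf3 and Axin2 added. They comprised 19 ligands, 10 Frizzled receptors, 10 secreted antagonists, both Lrp and both Kremen genes, 3 Lgr genes, the paired ligases Rnf43 and Znrf3, Axin2, and Fzd10os, a non-coding gene next to Fzd10 that the symbol rule also took. Of the 50 members, 41 passed the filter on low counts (a CPM, the library's counts scaled to a common total, of 1 or more in 2 or more libraries). The 9 that did not were Dkk4, Fzd9, Lgr5, Wif1, Wnt1, Wnt16, Wnt2b, Wnt8a and Wnt9b.

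The libraries held polyadenylated RNA of thymic epithelium from C57BL/6 mice, which forms the cortex and medulla of the thymus and supports and selects developing T cells. There was 1 library of Mcl1 knockout (KO) cortical thymic epithelial cells (cTECs), 1 of Mcl1 KO medullary cells (mTECs), 2 of wild-type (WT) mTECs and 4 of WT cTECs. Mcl1 encodes a BCL-2 family protein that keeps cells alive. The labels name neither the Cre line or promoter behind the deletion nor the age of the mice, and the design text calls the replicates biological without saying whether each is a separate animal or a pool. P-values therefore measure the spread between these libraries.

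Wnt ligands are lipid-modified secreted proteins that bind a Frizzled receptor together with Lrp5 or Lrp6. In the canonical branch this stabilises beta-catenin, which enters the nucleus and raises target genes, while other branches act on cell shape and polarity without it. Secreted Frizzled-related proteins (Sfrp genes, Frzb) and Wif1 bind the ligands, and most Dickkopf proteins (Dkk genes) bind Lrp5 and Lrp6. Rnf43 and Znrf3 remove Frizzled receptors from the cell surface, and R-spondins acting through Lgr proteins relieve that removal. In the thymus, Wnt proteins made by the epithelium, Wnt4 among them, are known to promote expression of Foxn1, the master factor of thymic epithelium.

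Total counts per library were between 11516780 and 19171953. Mcl1 stood at 8.22 CPM in the KO cTEC library, against 228, 302, 259 and 241 CPM in WT cTEC libraries 1 to 4. In mTECs it stood at 78.6 CPM in the KO library, against 113 and 203 CPM in the WT libraries. The log2 fold change was -4.97 ± 0.44 (SE) in cTECs (adjusted p = 0.000295) and -1.01 ± 0.36 in mTECs (adjusted p = 0.539), by edgeR's quasi-likelihood test with Benjamini-Hochberg adjustment over 18163 genes. The lower value in the KO mTEC library was not called. All 13 cTEC markers were detected in every library, at a sum of 13280 CPM in KO cTECs and 6699 to 12610 CPM in WT cTECs, against 4129 CPM in KO mTECs and 3103 to 3137 CPM in WT mTECs. Krt8 made up 3131 CPM of that sum in KO cTECs and 1186 to 1764 CPM in WT cTECs. Ctsl made up 3373 CPM in KO cTECs and 2135 to 5047 CPM in WT cTECs. In KO cTECs, 4 of the 13 were called higher and 0 lower, against 5.10% and 12.4% of all genes tested. WT cTECs also held mTEC and tuft cell RNA: Aire, the factor that marks mature mTECs, was at 28.9 to 116 CPM there, and was at 0 counts in KO cTECs. In bulk libraries of this kind, fewer cells of a type and less RNA per cell cannot be told apart.

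Among the members called higher in KO cTECs, 4 have an upstream window in the RefSeq promoter table (GRCm38.p6, which is the mm10 build), and their sequences are shown because these genes include the feedback gene Axin2 and 2 receptors. Each is the 250 bases before a transcription start that the table gives for the gene, 5′ to 3′ on the gene's own strand, and capitals mark CTTTGA or its reverse complement TCAAAG, the core letters that TCF and LEF factors recognise. The windows are at chr11:108920099-108920348 (plus strand) for Axin2, chr11:59290752-59291001 (minus strand) for Wnt3a, chr5:4758217-4758466 (minus strand) for Fzd1 and chr1:59481897-59482146 (plus strand) for Fzd7, and at most 1 base of any of them lies in an exon annotated by GENCODE. The Axin2 window lies inside the span that RefSeq gives the gene, which begins upstream of it at position 108917828.
Axin2: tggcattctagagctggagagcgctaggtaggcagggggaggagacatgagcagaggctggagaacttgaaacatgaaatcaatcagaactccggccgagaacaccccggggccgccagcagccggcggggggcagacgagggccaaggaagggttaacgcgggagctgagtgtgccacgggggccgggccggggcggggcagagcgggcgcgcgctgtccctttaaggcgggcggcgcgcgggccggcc
Wnt3a: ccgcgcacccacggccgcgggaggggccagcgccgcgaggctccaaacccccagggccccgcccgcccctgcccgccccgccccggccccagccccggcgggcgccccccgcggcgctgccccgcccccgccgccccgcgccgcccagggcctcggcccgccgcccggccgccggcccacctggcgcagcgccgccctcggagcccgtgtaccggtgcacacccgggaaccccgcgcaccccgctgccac
Fzd1: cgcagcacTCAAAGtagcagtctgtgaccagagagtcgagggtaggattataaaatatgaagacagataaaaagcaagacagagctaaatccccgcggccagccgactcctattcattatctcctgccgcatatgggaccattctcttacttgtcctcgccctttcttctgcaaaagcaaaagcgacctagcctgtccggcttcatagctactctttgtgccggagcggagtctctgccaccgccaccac
Fzd7: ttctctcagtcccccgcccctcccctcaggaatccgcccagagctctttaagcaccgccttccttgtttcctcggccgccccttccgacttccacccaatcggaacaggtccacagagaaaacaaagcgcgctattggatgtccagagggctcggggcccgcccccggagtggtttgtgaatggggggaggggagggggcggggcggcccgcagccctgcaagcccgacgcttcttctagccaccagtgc

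Only the Fzd1 window of these 4 holds the letters. Over all members in the table (36 windows of 32 genes), 5 windows held them on either strand, or 13.9%, against 13.8% of all 32851 windows, so the members' share was that of promoters in general. The member windows with the letters belong to Dkk1, Frzb, Fzd1, Wnt11 and Wnt5b. Member windows had a median GC content of 66% and a median of 18.5 CpG dinucleotides, against 52.4% and 6 over all windows. A match is a description of letters in a window, and its absence says only that these letters are not in it.

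In KO cTECs, the feedback gene Axin2, the ligand Wnt3a and 3 Frizzled receptors rose relative to WT cTECs, while the antagonists Sfrp1, Dkk1 and Dkk3 and the ligands Wnt10a, Wnt10b and Wnt11 fell. Of the 41 members tested, 12 (29.3%) were called at an adjusted p under 0.05, 6 higher and 6 lower, with Fzd10os as the sixth of the higher ones. Over all genes tested, 17.5% were called, 5.10% higher and 12.4% lower. The median log2 fold change was 0.00 over the members and -0.14 over all genes. Both KO comparisons and their difference share the spread of the WT libraries, and each KO group is a single library that was assumed to vary like them.

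Axin2 (chr11:108917828-108950783) encodes a scaffold of the complex that destroys beta-catenin, and its transcription is a widely used readout of canonical signalling. It stood at 33.3 CPM in KO cTECs, with an exact 95% counting interval of 30.5 to 36.3, against 6.06, 7.89, 9.82 and 7.51 CPM in the WT cTEC libraries. The KO value lay above every other library of the series, since KO mTECs had 9.66 CPM and WT mTECs 8.57 and 7.70 CPM. The log2 fold change in cTECs was 2.09 ± 0.34 (adjusted p = 0.00439, edgeR's quasi-likelihood test).

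**Figure D1:**
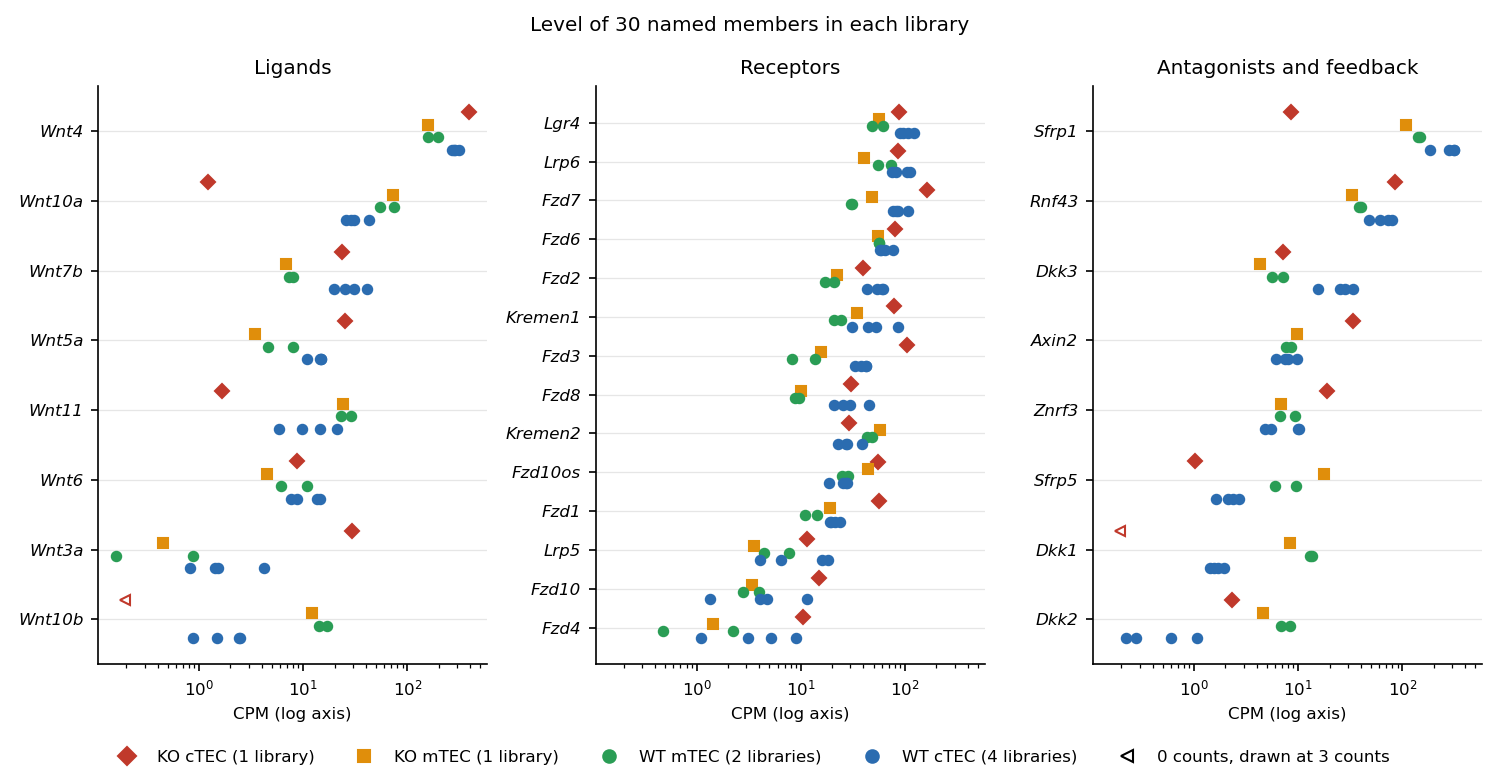
CPM (log axis) of the 30 members named by the rule in each of the 8 libraries, in 3 panels by role; each point is 1 library, and an open triangle is a count of 0 drawn at 3 counts. The KO cTEC points of Sfrp1 (8.61 CPM), Wnt10a (1.22 CPM) and Wnt11 (1.67 CPM) lie far below all others in their lines, and that of Wnt3a (29.5 CPM) lies far above.

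Of the ligands, Wnt3a (chr11:59248036-59290751), a canonical ligand, had 29.5 CPM in KO cTECs (95% counting interval 26.9 to 32.3), against 1.43, 4.20, 1.52 and 0.822 CPM in WT cTECs. Every WT library was below the KO library, although WT values themselves spanned a wide range. The log2 fold change was 3.89 ± 0.84 (adjusted p = 0.0153), and 4.55 when WT cTEC library 2 was left out. In mTECs Wnt3a was near the limit of detection, at 0.451 CPM in the KO library and 0.879 and 0.158 CPM in the WT libraries.

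Wnt10a, Wnt10b and Wnt11 moved the other way. Wnt10a, a ligand known for its role in skin appendages and teeth, had 1.22 CPM in KO cTECs, against 28.9, 31.0, 25.6 and 43.3 CPM in WT cTECs. Its log2 fold change was -4.71 ± 0.48 (adjusted p = 0.000506), the second largest fall among members with a count in the KO library. Wnt11, which is known for acting mainly through the branch without beta-catenin, had 1.67 CPM in KO cTECs, against 21.0, 9.80, 5.86 and 14.5 CPM in WT cTECs, and its log2 fold change was -2.93 ± 0.76 (adjusted p = 0.0315). The WT spread of Wnt11 was wide, and its adjusted p became 0.0582 or 0.0573 when either WT mTEC library was left out, and 0.195 with limma-voom. Its log2 fold change was -3.74 without WT cTEC libraries 2 to 4. Wnt10b, a canonical ligand, had no count in KO cTECs, against 2.50, 1.47, 0.868 and 2.41 CPM in WT cTECs. With the 0 taken as 3 counts (0.193 CPM), Wnt10b was 9.41-fold below the WT mean of 1.81 CPM, a value that leaves out the WT spread. It was called lower in KO cTECs (adjusted p = 0.00962, edgeR's quasi-likelihood test), with limma-voom giving an adjusted p of 0.146.

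Wnt10a and Wnt3a each have a close neighbour in the same gene family, whose change was not called. Wnt6 ends 6696 bases from Wnt10a on chromosome 1 and stood at 8.67 CPM in KO cTECs, against 14.6, 7.59, 8.74 and 13.5 CPM in WT cTECs, and its log2 fold change of -0.36 ± 0.54 was not called (adjusted p = 0.677). Wnt9a starts 16097 bases from Wnt3a on chromosome 11, at 3.73 CPM in KO cTECs and 5.13, 6.56, 7.0 and 2.08 CPM in WT cTECs, and its log2 fold change was -0.48 ± 0.74 (adjusted p = 0.685). The difference between neighbours was not itself tested. Wnt1, 11650 bases from Wnt10b, was at or below 1.81 CPM in every library. The spans of Wnt9b and Wnt3 overlap by 1098 bases in RefSeq. The sources used here do not state how reads within that stretch were assigned between them.

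**Figure D2:**
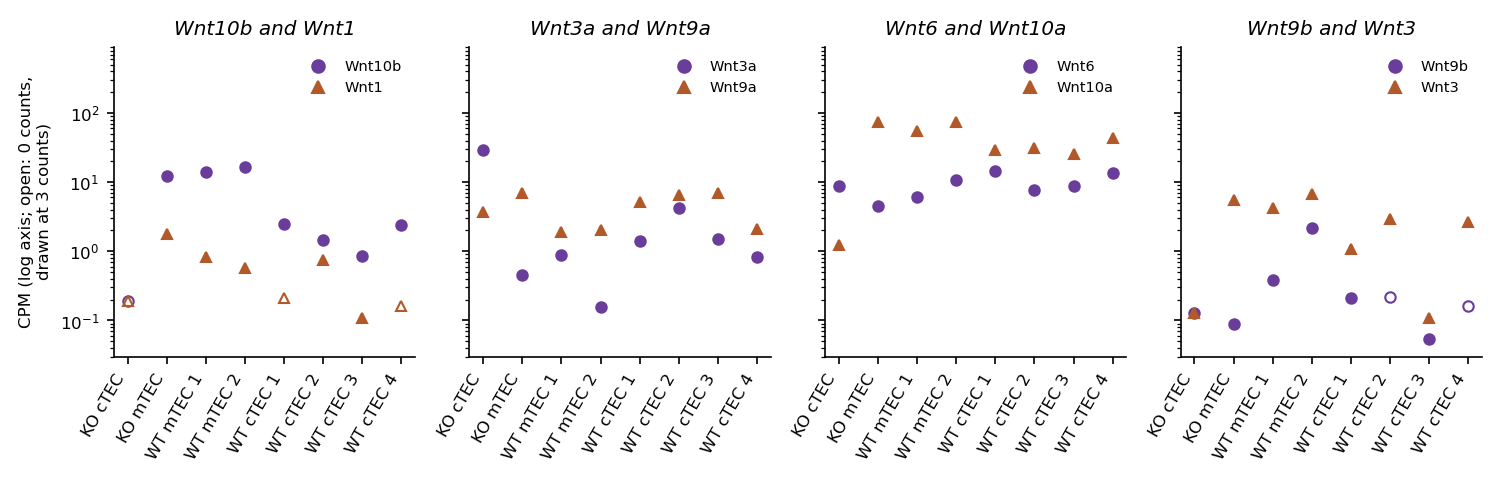
CPM (log axis) of the 4 pairs of neighbouring Wnt genes in each library, with 1 point per gene and library and open symbols for a count of 0 drawn at 3 counts. In KO cTECs, Wnt10a sits at 1.22 CPM while Wnt6 is at 8.67 CPM, and Wnt3a sits at 29.5 CPM while Wnt9a is at 3.73 CPM.

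The other ligands that reached 10 CPM were not called in KO cTECs. Wnt4, the most abundant ligand, had 393 CPM in KO cTECs, against 278, 289, 315 and 269 CPM in WT cTECs, and its log2 fold change of 0.45 ± 0.19 was not called (adjusted p = 0.153) although the KO library was above all 4 WT libraries. Wnt5a, a ligand known mainly from the branches without beta-catenin, had 25.1 CPM in KO cTECs, against 11.0, 14.9, 14.7 and 14.5 CPM in WT cTECs, with a log2 fold change of 0.86 ± 0.38 (adjusted p = 0.161). Wnt7b had 23.7 CPM in KO cTECs and 25.0, 31.0, 19.7 and 40.7 CPM in WT cTECs, so the groups overlapped. Of the 14 ligands tested, 1 was called higher and 3 lower, against 5.10% and 12.4% of all genes tested. The median log2 fold change of the ligands was -1.18.

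Levels of different genes were compared per length, as RPKM (CPM per kilobase of gene length). Wnt4 was the leading ligand in all 8 libraries, making up 77.9% of the summed ligand RPKM in KO cTECs, 37.9% in KO mTECs, 48.6% and 36.4% in WT mTECs and 58.6 to 71.9% in WT cTECs. The next ligand was Wnt3a in KO cTECs, at 10.7 RPKM and 8.10% of the sum. In the other 3 groups it was Wnt10a, at 37.3 RPKM in KO mTECs, a mean of 32.7 RPKM in WT mTECs and a mean of 16.4 RPKM in WT cTECs. The summed ligand RPKM was 132 in KO cTECs, 109 in KO mTECs, 105 and 113 in WT mTECs and 115 to 120 in WT cTECs.

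**Figure D3:**
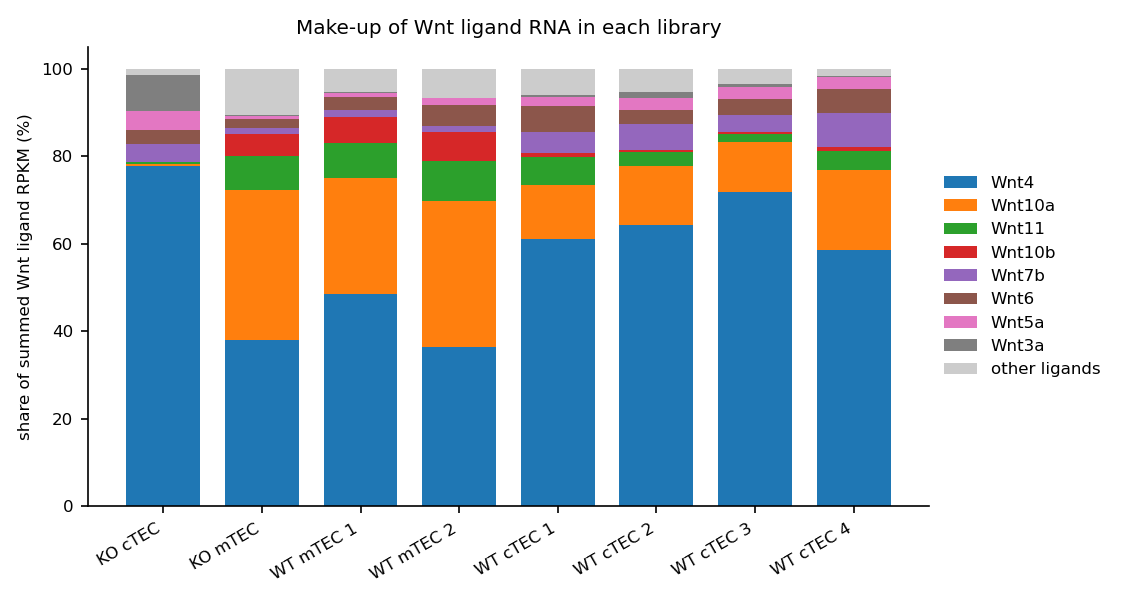
Share of the summed RPKM of all 19 Wnt ligands taken by each ligand (percent, stacked) in each of the 8 libraries. Wnt4 takes 77.9% in KO cTECs, where the Wnt10a band nearly disappears and a Wnt3a band of 8.10% appears, and Wnt10a is the second band in the other libraries.

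Among receptors, Fzd7, Fzd3 and Fzd1 rose in KO cTECs, and none of the 9 Frizzled genes tested was called lower. Over all genes tested, 5.10% were called higher and 12.4% lower. Fzd7, a receptor known from stem cells and epithelium, had 164 CPM in KO cTECs, against 77.3, 108, 82.9 and 85.9 CPM in WT cTECs, and its log2 fold change was 0.89 ± 0.21 (adjusted p = 0.0220). Fzd3, known for its part in planar polarity and axon guidance, had 106 CPM in KO cTECs and 42.1, 42.5, 37.6 and 33.5 CPM in WT cTECs, and its log2 fold change was 1.44 ± 0.27 (adjusted p = 0.00811). Fzd1 had 56.4 CPM in KO cTECs and 19.4, 21.2, 19.1 and 23.6 CPM in WT cTECs, and its log2 fold change was 1.44 ± 0.25 (adjusted p = 0.00624). For all 3 the KO library was above every WT cTEC library, as it was for 29% of all genes tested. The adjusted p of Fzd7 was 0.0553 without WT cTEC library 3. The median log2 fold change over the 9 Frizzled genes tested was 0.89.

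The other receptors were not called in KO cTECs. Fzd6 had 80.5 CPM in KO cTECs and 58.1 to 77.3 CPM in WT cTECs, and Fzd2 had 39.4 CPM in KO cTECs and 42.8 to 62.3 CPM in WT cTECs. Fzd5 had 3.60 CPM in KO cTECs and 4.45 to 16.3 CPM in WT cTECs. Both Fzd2 and Fzd5 lay below every WT cTEC library, with log2 fold changes of -0.47 ± 0.28 and -1.09 ± 0.86. Of the 9 Frizzled genes tested, 6 lay above every WT cTEC library and 2 below, against 29% and 32.9% of all genes tested. Fzd8, Fzd10 and Fzd4 stood at 30.3, 15.1 and 10.5 CPM in KO cTECs, against 20.9 to 45.2, 1.36 to 11.5 and 1.10 to 8.92 CPM in WT cTECs. The co-receptor Lrp6 had 86.1 CPM in KO cTECs and 75.8 to 111 CPM in WT cTECs, while Lrp5 had 11.4 CPM in KO cTECs and 4.06 to 18.3 CPM in WT cTECs. Lgr4, a receptor for R-spondins, had 87.3 CPM in KO cTECs and 90.1 to 121 CPM in WT cTECs, just below the WT range. The Dickkopf receptors Kremen1 and Kremen2 had 77.9 and 29.2 CPM in KO cTECs, against 31.4 to 85.4 and 22.7 to 38.8 CPM in WT cTECs. The summed Frizzled RPKM was 103 in KO cTECs, above the 65.6 to 81.8 of the WT cTEC libraries, and was 40.4 in KO mTECs and 34.9 and 35.1 in WT mTECs.

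Fzd10os had 54.9 CPM in KO cTECs, against 18.8, 25.4, 27.0 and 28.1 CPM in WT cTECs, and its log2 fold change was 1.15 ± 0.26 (adjusted p = 0.0186). Fzd10, which starts 418 bases from it in RefSeq, had a log2 fold change of 1.48 ± 0.84 (adjusted p = 0.263). The 2 genes share no bases in RefSeq.

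Among the antagonists, Sfrp1, Dkk1 and Dkk3 fell in KO cTECs. Sfrp1, a secreted Frizzled-related protein that binds Wnt ligands, had 8.61 CPM in KO cTECs (95% counting interval 7.22 to 10.2), against 184, 312, 281 and 316 CPM in WT cTECs. Its log2 fold change of -4.99 ± 0.42 (adjusted p = 0.000228, edgeR's quasi-likelihood test) had the smallest adjusted p of the members in this comparison. Dkk1, which binds Lrp5 and Lrp6, had no count in KO cTECs, against 1.57, 1.92, 1.68 and 1.43 CPM in WT cTECs. With the 0 taken as 0.193 CPM, Dkk1 was 8.55-fold below the WT mean of 1.65 CPM, a value that leaves out the WT spread. It was called lower (adjusted p = 0.00315, edgeR's quasi-likelihood test), with limma-voom giving an adjusted p of 0.0908. Dkk3, a divergent family member, had 7.07 CPM in KO cTECs, against 15.6, 33.3, 28.4 and 25.4 CPM in WT cTECs, and its log2 fold change was -1.86 ± 0.48 (adjusted p = 0.0324). That call was lost in 5 of 12 alternatives, with an adjusted p of up to 0.0785, and the log2 fold change was -1.23 without WT cTEC libraries 2 to 4.

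Of the 8 antagonists tested, 3 were called lower and none higher, against 12.4% and 5.10% of all genes tested. Sfrp2 lay above every WT cTEC library, at 4.05 CPM in KO cTECs and 0.0548 to 1.40 CPM in WT cTECs, but its log2 fold change of 2.64 ± 1.27 was not called (adjusted p = 0.191). Sfrp5 had 1.03 CPM in KO cTECs and 1.64 to 2.69 CPM in WT cTECs, and Dkk2 had 2.31 CPM in KO cTECs and 0.221 to 1.07 CPM in WT cTECs; neither was called (adjusted p = 0.253 and 0.114). The summed antagonist RPKM was 10.7 in KO cTECs and 50.8 to 86.7 in WT cTECs. Sfrp1 held 82.3 to 84.7% of that sum in WT cTECs, while in KO cTECs the leading antagonist was Sfrp4, at 31.3%. The ligases Rnf43 and Znrf3, which are themselves induced by canonical signalling, were at 85.5 and 18.8 CPM in KO cTECs, against 48.3 to 80.3 and 4.77 to 10.2 CPM in WT cTECs. Both lay above every WT cTEC library, as did 29% of all genes tested, but neither was called (adjusted p = 0.364 and 0.109, edgeR's quasi-likelihood test).

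Markers of other cell types also differed between KO and WT cTECs. Thymic tuft cell markers (12 genes, all called lower) summed to 39.1 CPM in KO cTECs and 1297 to 2132 CPM in WT cTECs, and Chat, Gnat3, Hepacam2, Rgs13 and Trpm5 were at 0 in KO cTECs. Mature mTEC markers (12 genes, 8 called lower) summed to 3134 CPM in KO cTECs and to 3718 to 4965 CPM in WT cTECs. Of these sums, H2-Aa made up 3102 CPM in KO cTECs and 2536 to 3466 CPM in WT cTECs. Ccl21a stood at 1.54 CPM in KO cTECs and 656 to 963 CPM in WT cTECs, above its 506 and 281 CPM in WT mTECs. Aire, Ccl22, Csn2 and Ins2 were at 0 in KO cTECs. Dendritic cell and macrophage markers (9 genes, 5 called lower) summed to 11.8 CPM in KO cTECs and 155 to 258 CPM in WT cTECs, with Adgre1, Mpeg1 and Xcr1 at 0 in KO cTECs. Lyz2 made up 9.25 CPM of that sum in KO cTECs and 121 to 223 CPM in WT cTECs. Erythroid markers (5 genes, 3 called higher) summed to 408 CPM in KO cTECs and 16.3 to 71.4 CPM in WT cTECs, and fibroblast markers (10 genes, 2 called higher) summed to 1057 CPM in KO cTECs and 728 to 929 CPM in WT cTECs. Dcn made up 573 CPM of the fibroblast sum in KO cTECs and 557 to 812 CPM in WT cTECs. Of the 6 members that fell in KO cTECs, Wnt10a, Wnt10b and Dkk1 were called higher in WT mTECs than in WT cTECs, and Wnt11 was not called. Sfrp1 and Dkk3 were called lower in WT mTECs, as were 5 of the 12 tuft cell markers. The part of these cell types in the results was not tested. WT cTEC library 1 differed from the other 3 in immediate-early genes (15 genes), whose sum was 6502 CPM in KO cTECs, 3105 CPM in WT library 1 and 19780 to 28140 CPM in WT libraries 2 to 4. With WT cTEC libraries 2 to 4 left out, all 12 members called with every library were called in the same direction, and 20 members were called in all, in a fit whose spread comes from the WT mTEC pair alone.

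In mTECs, no member differed between KO and WT by the test. Of the 41 members, 0 were called, and over all genes tested 0% were called, with 1502 genes at an unadjusted p under 0.05 and 139 called by DESeq2. The members at an unadjusted p under 0.05 were Fzd7, Fzd10os and Wnt9a, and DESeq2 called no member either. Fzd7 had 48.6 CPM in KO mTECs, against 30.7 and 31.1 CPM in WT mTECs, and its log2 fold change was 0.65 ± 0.24 (adjusted p = 0.548). Wnt9a had 6.86 CPM in KO mTECs and 1.92 and 2.06 CPM in WT mTECs, and its log2 fold change was 1.78 ± 0.76 (adjusted p = 0.598).

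The ligands and antagonists that fell in KO cTECs were all detected in KO mTECs. Sfrp1 had 108 CPM in KO mTECs, against 147 and 142 CPM in WT mTECs, and Wnt10a had 73.1 CPM in KO mTECs, against 54.6 and 73.7 CPM in WT mTECs. Wnt10b had 12.1 CPM in KO mTECs and 14.1 and 16.8 CPM in WT mTECs, Dkk1 had 8.31 CPM in KO mTECs and 13.5 and 13.0 CPM in WT mTECs, and Wnt11 had 23.8 CPM in KO mTECs and 23.1 and 28.7 CPM in WT mTECs. Dkk3 had 4.33 CPM in KO mTECs and 5.61 and 7.07 CPM in WT mTECs. The log2 fold changes of these 6 genes were between -0.67 and 0.19. Sfrp1, Wnt10b, Dkk1 and Dkk3 lay below both WT mTEC libraries, while Wnt10a and Wnt11 overlapped them. Over all genes tested, 41.7% lay below both. Sfrp5 had 17.6 CPM in KO mTECs and 6.04 and 9.44 CPM in WT mTECs, and its log2 fold change of 1.18 ± 0.56 was not called (adjusted p = 0.630). Fibroblast markers summed to 1153 CPM in KO mTECs and 185 and 151 CPM in WT mTECs, of which Dcn made up 575, 129 and 98.9 CPM. Erythroid markers summed to 956 CPM in KO mTECs and 66.7 and 32.6 CPM in WT mTECs. The part of these markers in the member values was not tested.

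**Figure D4:**
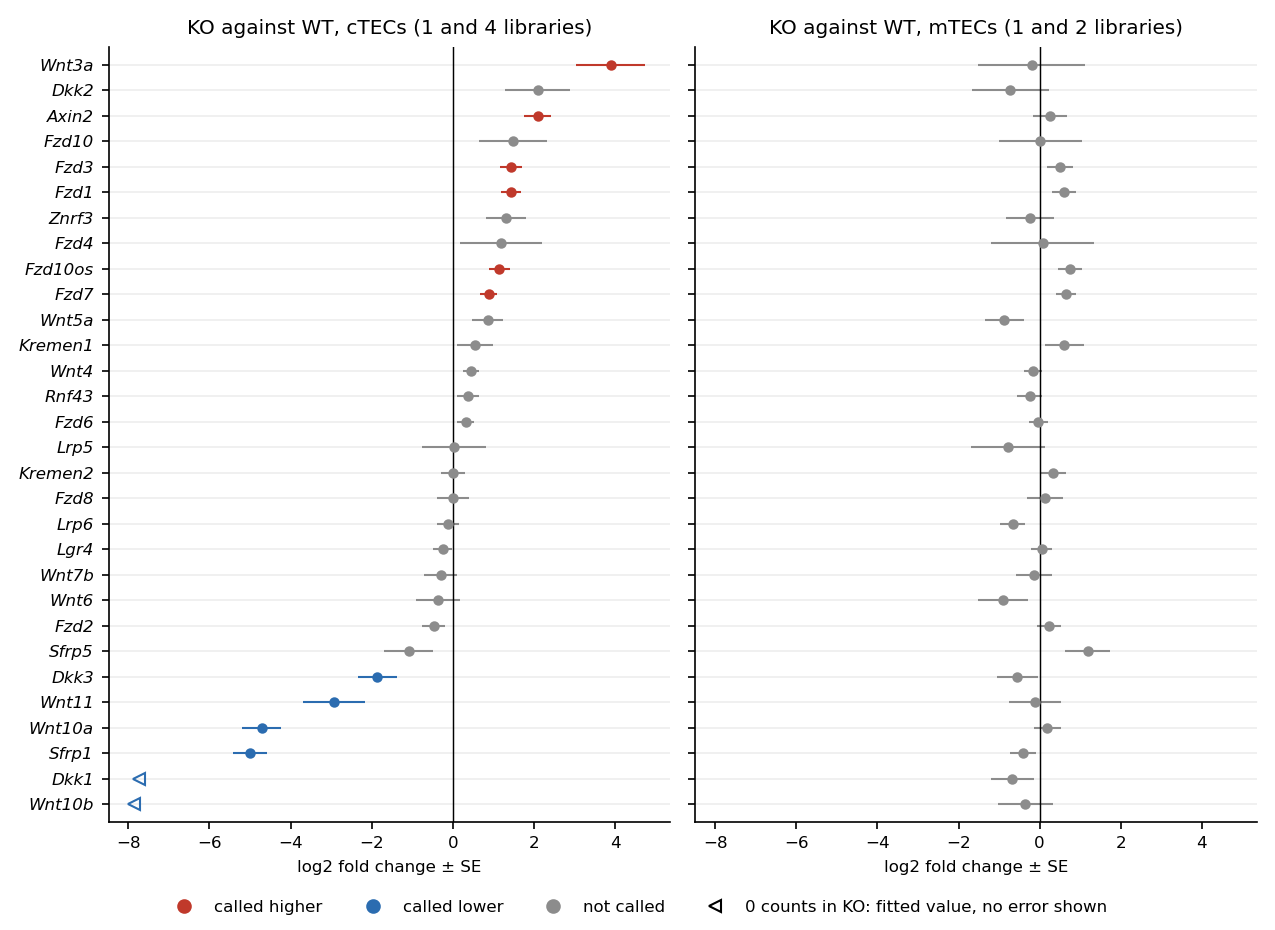
Log2 fold change of KO against WT with its SE for the 30 named members, in cTECs (left, 1 and 4 libraries) and mTECs (right, 1 and 2 libraries); red and blue are called higher and lower, grey is not called, and open triangles are genes with no count in KO cTECs, drawn at the fitted value. In cTECs Sfrp1 (-4.99) and Wnt10a (-4.71) are the lowest of the members with a count and Wnt3a (3.89) the highest, and in mTECs no member is called.

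The effect of the knockout differed between the populations for 4 members, Dkk1, Sfrp1, Wnt10a and Wnt10b. They are 4 of 41 members (9.76%), against 6.81% of all genes tested. The difference, as the log2 effect in mTECs minus that in cTECs, was 4.57 ± 0.48 for Sfrp1 (adjusted p = 0.00122) and 4.90 ± 0.56 for Wnt10a (adjusted p = 0.00172). It was 7.05 ± 1.34 for Dkk1 (adjusted p = 0.0169) and 7.51 ± 1.73 for Wnt10b (adjusted p = 0.0385), both fitted against a library with no count, so the size depends on the fit. Dkk1 and Wnt10b lost the call when either WT mTEC library was left out, with adjusted p of up to 0.0781 and 0.114 over the fits that leave out 1 replicate. With limma-voom, Dkk1, Wnt10b and Wnt10a all lost it (adjusted p = 0.309, 0.367 and 0.103), so that Dkk1 lost the call in 3 of 11 alternatives, Wnt10b in 5 and Wnt10a in 1. The loss of Mcl1 itself also differed between the populations, by 3.96 ± 0.50 (adjusted p = 0.00277), with 8.22 CPM left in KO cTECs and 78.6 CPM in KO mTECs. These differences therefore set a library with a called loss of Mcl1 beside one without, and unequal deletion and a different response to it cannot be told apart. For Axin2 the difference was -1.84 ± 0.57 and not called (adjusted p = 0.108), and for Wnt3a it was -4.08 ± 1.67 (adjusted p = 0.223).

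Between the WT populations, mTECs had more of the ligands Wnt10a and Wnt10b and of the antagonists Dkk1, Dkk2 and Sfrp5, and less of Wnt4, Wnt5a and Wnt7b, of most Frizzled receptors and of Sfrp1 and Dkk3. Of 41 members, 18 (43.9%) were called, 5 higher and 13 lower in mTECs, against 27.0% of all genes tested, 13.2% higher and 13.9% lower. The median log2 fold change was -0.38 over the members and 0.06 over all genes. With only 2 mTEC libraries, 6 members were called without WT mTEC library 1 and 4 without library 2, and Dkk1, Fzd2, Fzd3 and Fzd7 were called in all 15 alternatives.

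Of the ligands, Wnt10b had 14.1 and 16.8 CPM in WT mTECs, against 2.50, 1.47, 0.868 and 2.41 CPM in WT cTECs, and its log2 fold change was 3.09 ± 0.47 (adjusted p = 0.00387). Wnt10a averaged 64.2 ± 13.5 CPM in WT mTECs (SD, n = 2) and 32.2 ± 7.71 CPM in WT cTECs (SD, n = 4), a log2 fold change of 1.00 ± 0.24 (adjusted p = 0.0188, edgeR's quasi-likelihood test). Wnt7b, known from epithelial development, had 7.91 and 7.22 CPM in WT mTECs, against 25.0, 31.0, 19.7 and 40.7 CPM in WT cTECs, and its log2 fold change was -1.94 ± 0.33 (adjusted p = 0.00593). Wnt4 averaged 176 ± 27.6 CPM in WT mTECs and 288 ± 20.3 CPM in WT cTECs, and its log2 fold change was -0.71 ± 0.16 (adjusted p = 0.0158), and Wnt5a a log2 fold change of -1.13 ± 0.33 (adjusted p = 0.0378). For these 5 ligands the 2 groups did not overlap. Over all genes tested, WT mTECs lay wholly above WT cTECs for 30.2% and wholly below for 24.7%.

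Of the 9 Frizzled genes tested, 5 were lower in WT mTECs and none was higher, against 13.9% lower and 13.2% higher over all genes tested. The median log2 fold change of the Frizzled genes was -1.52. Fzd7 had 30.7 and 31.1 CPM in WT mTECs, against 77.3, 108, 82.9 and 85.9 CPM in WT cTECs, and its log2 fold change was -1.52 ± 0.19 (adjusted p = 0.00188). Fzd3 had 13.6 and 8.33 CPM in WT mTECs and 42.1, 42.5, 37.6 and 33.5 CPM in WT cTECs, and its log2 fold change was -1.83 ± 0.25 (adjusted p = 0.00278). Fzd2, Fzd8 and Fzd1 had log2 fold changes of -1.52, -1.72 and -0.73. Fzd6 had 56.5 and 56.7 CPM in WT mTECs and 58.1 to 77.3 CPM in WT cTECs and was not called (adjusted p = 0.434). It was the leading Frizzled by RPKM in mTECs (13.7 RPKM on average in WT mTECs), while Fzd7 led the mean of WT cTECs (18.4 RPKM). In WT cTEC library 1 Fzd6 led instead, at 18.7 RPKM against 16.1 RPKM for Fzd7. Lgr4, Rnf43 and Kremen1 were also lower in WT mTECs, with log2 fold changes of -0.91, -0.74 and -1.23, while Kremen2 was 45.7 ± 3.04 CPM in WT mTECs and 29.2 ± 6.81 CPM in WT cTECs and was not called (adjusted p = 0.0647).

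The Dickkopf genes split between the populations. Dkk1 had 13.5 and 13.0 CPM in WT mTECs, against 1.57, 1.92, 1.68 and 1.43 CPM in WT cTECs, and its log2 fold change was 3.00 ± 0.37 (adjusted p = 0.00186). Dkk2 had 6.87 and 8.33 CPM in WT mTECs and 1.07, 0.221, 0.597 and 0.274 CPM in WT cTECs, and its log2 fold change was 3.80 ± 0.67 (adjusted p = 0.00635). Dkk3 went the other way, with 5.61 and 7.07 CPM in WT mTECs, against 15.6, 33.3, 28.4 and 25.4 CPM in WT cTECs, and its log2 fold change was -2.02 ± 0.36 (adjusted p = 0.00684). Sfrp5 was higher (1.81 ± 0.40, adjusted p = 0.0144) and Sfrp1 lower (-0.92 ± 0.23, adjusted p = 0.0232) in WT mTECs on the log2 scale. Axin2 was not called, at a log2 fold change of 0.06 ± 0.30 (adjusted p = 0.902).

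Marker sums of other cells differed between the WT populations too. Tuft cell markers summed to 961 and 1109 CPM in WT mTECs and 1297 to 2132 CPM in WT cTECs, with 5 of the 12 called lower in mTECs and 0 higher. Dendritic cell and macrophage markers summed to 835 and 1099 CPM in WT mTECs, of which Lyz2 made up 740 and 993 CPM, and to 155 to 258 CPM in WT cTECs. Fibroblast markers summed to 185 and 151 CPM in WT mTECs and 728 to 929 CPM in WT cTECs, where Dcn made up 557 to 812 CPM. Of the 10 fibroblast markers, 3 were called lower in WT mTECs and 0 higher, while Pdgfrb and Thy1 lay above every WT cTEC library. Immediate-early genes summed to 2426 and 1372 CPM in WT mTECs, nearer to WT cTEC library 1 (3105 CPM) than to libraries 2 to 4. The part of these in the member values was not tested. Against WT cTEC library 1 alone, with the spread of the WT mTEC pair, the log2 fold changes of Sfrp1, Rnf43, Wnt5a and Fzd1 were -0.39, -0.34, -0.85 and -0.67 and no longer called, and the other 14 members were called in the same direction. Among these, Dkk2 had a log2 fold change of 2.78 and Dkk3 one of -1.34.

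**Figure D5:**
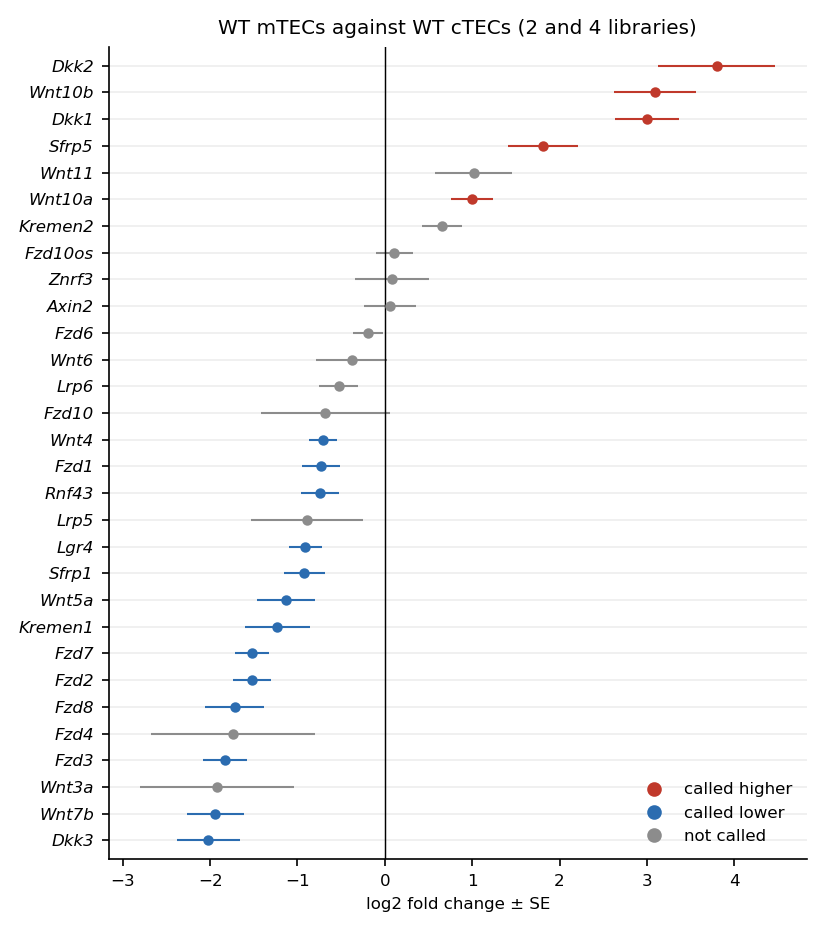
Log2 fold change of WT mTECs against WT cTECs with its SE for the 30 named members (2 and 4 libraries); red and blue are called higher and lower and grey is not called. Dkk2 (3.80), Wnt10b (3.09) and Dkk1 (3.00) lie furthest to the right, and Dkk3 (-2.02), Wnt7b (-1.94) and Fzd3 (-1.83) furthest to the left among the called members.

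Other genes of the pathway were read from 6 lists with 84 genes, of which 80 were tested. In KO cTECs 11 were called higher and 10 lower, against 5.10% higher and 12.4% lower over all genes tested, with a median log2 fold change of 0.08, and in KO mTECs 0 were called, with a median of 0.06. Among 18 beta-catenin target genes tested, 3 rose and 5 fell in KO cTECs, to be read against the same shares, and their median log2 fold change was -0.21. Tnfrsf19, which encodes the receptor Troy, had 363 CPM in KO cTECs, against 15.5, 22.3, 29.2 and 24.0 CPM in WT cTECs, and its log2 fold change was 3.99 ± 0.26 (adjusted p = 0.000102). Nkd1, an inducible inhibitor that binds Dishevelled, had 48.2 CPM in KO cTECs and 11.1, 10.2, 10.7 and 8.77 CPM in WT cTECs, and its log2 fold change was 2.25 ± 0.29 (adjusted p = 0.00150).

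More of the target genes were called lower than higher. Cdx1, a homeobox factor of intestinal epithelium, had no count in KO cTECs, against 100, 57.2, 37.5 and 65.1 CPM in WT cTECs. It was called lower (adjusted p = 0.000565, edgeR's quasi-likelihood test). With the 0 taken as 0.193 CPM, Cdx1 was 338-fold below the WT mean of 65.0 CPM, a value that leaves out the WT spread. Mmp7, a matrix metalloproteinase, had 0.707 CPM in KO cTECs, against 30.7, 42.6, 29.3 and 26.9 CPM in WT cTECs, and its log2 fold change was -5.50 ± 0.46 (adjusted p = 0.000228). Cdx1 stood at 311 CPM in KO mTECs and 246 and 367 CPM in WT mTECs, above its level in WT cTECs. Lef1, a nuclear partner of beta-catenin, rose (2.13 ± 0.60, adjusted p = 0.0421), as the only one of the 10 nuclear factors tested to be called. It is also counted among the target genes that rose.

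Of 13 further inhibitors tested, 5 rose and 3 fell in KO cTECs, against 5.10% higher and 12.4% lower over all genes tested. Nkd1 is counted both here and among the target genes. Apcdd1, a membrane inhibitor, had 30.9 CPM in KO cTECs and 7.49, 5.75, 10.04 and 10.3 CPM in WT cTECs, and its log2 fold change was 1.88 ± 0.47 (adjusted p = 0.0288). Sostdc1, a secreted inhibitor that binds Lrp6, had 1.99 CPM in KO cTECs and 48.3, 14.96, 16.3 and 16.9 CPM in WT cTECs, and its log2 fold change was -3.59 ± 0.85 (adjusted p = 0.0229), and the co-repressor Tle2 a log2 fold change of -2.67 ± 0.54 (adjusted p = 0.0122). Tpbg, a membrane protein that modulates Wnt signalling, had 100 CPM in KO cTECs and 30.6 to 39.9 CPM in WT cTECs, as the 1 gene called of the 8 for secretion and R-spondin. Of 18 destruction complex and Dishevelled genes, Dvl2 was the only one called (1.18 ± 0.34, adjusted p = 0.0490). Of 17 genes of the branches without beta-catenin, the receptors Ror1 (1.48 ± 0.29) and Ptk7 (1.28 ± 0.31) rose, and the formin Daam1 (-1.11 ± 0.23) and the cadherin Celsr1 (-0.88 ± 0.24) fell on the log2 scale, with adjusted p between 0.0101 and 0.0364 by edgeR's quasi-likelihood test. Between the WT populations, 25 of the 80 genes were called lower and 5 higher in mTECs, against 13.9% lower and 13.2% higher over all genes tested.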

How the data were processed

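RNA was measured in 8 libraries of thymic epithelial cells. Per the labels' protocols, snap-frozen pellets gave RNA, a SMART-Seq v4 kit made the cDNA, Nextera XT the indexed libraries, and reads were paired. The authors deposited raw counts per gene with no normalization, made with featureCounts on mm10 per the submitters' processing notes. The sources used here name no aligner, annotation or version. A further table, whose 8 columns match no sample label, was not used. Symbols and positions came from RefSeq, and protein sequences were not used here.

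CPM are counts scaled by library total and edgeR's TMM factors, and RPKM divide them by the deposited gene length. The 18163 genes that reached 1 CPM in 2 or more libraries were fitted with edgeR 4.0.16 (quasi-likelihood, robust, R 4.3.3), with 1 mean per group over all 8 libraries and 4 residual degrees of freedom, and tested two-sided. A call is a Benjamini-Hochberg adjusted p under 0.05 over all genes tested, and the SE is the size of the log2 fold change divided by the square root of F. The spread comes from the WT libraries. The fit was run on simulated counts in which every library had the same spread. That run cannot check the assumption that a single KO library varies like the WT libraries. Alternatives were other scaling, no filter, DESeq2 1.42.0, limma-voom (limma 3.58.1), and fewer libraries. Counting intervals are exact Clopper-Pearson intervals at 95%, and for folds a count of 0 was taken as 3 counts. In KO cTECs 3 counts are 0.193 CPM, while the exact interval of a 0 count reaches 0.237 CPM. Both cover counting error only, since reads carry no molecular identifiers. Named members are those called in any comparison or with a group mean of at least 10 CPM. From the pathway lists, called genes with an average log2 CPM of at least 3 were named, up to 4 per list and comparison. Members and lists were chosen with earlier results of these data known.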

Additional observations from a re-analysis of the deposited data

Results flagged for a closer look

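The effect of the knockout differed between mTECs and cTECs, by the test of the difference itself, for 4 members. The log2 differences were 7.05 for Dkk1, 4.57 for Sfrp1, 4.90 for Wnt10a and 7.51 for Wnt10b, each positive because the gene was lower in KO cTECs than in WT cTECs. Among the 30 named members, 1 gene had an outlying library: Wnt5a in WT cTEC library 1, at 10.98 CPM, where the nearest of the other 3 libraries was at 14.53 CPM and the farthest at 14.89 CPM, which gives a Dixon ratio of 0.907. Chance marks about 1 in 20 groups of this kind.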

How the results depend on the processing

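Of 458 recomputed values of called members, 384 kept their direction and side of the threshold, 74 lost the call and 0 changed sign. With WT cTEC libraries 2 to 4 left out, members called were 20 for KO against WT in cTECs, 1 in mTECs and 14 for the difference of the KO effects, and genes called were 6078, 734 and 4110. Leaving out 1 replicate at a time, members called ranged from 10 to 13 for KO against WT in cTECs, from 4 to 20 for mTEC against cTEC and from 2 to 4 for the difference. Genes called then ranged from 0 to 7 for KO against WT in mTECs, from 603 to 6762 for mTEC against cTEC and from 649 to 1849 for the difference. DESeq2 called 139 genes for KO against WT in mTECs and 2050 for the difference. Limma-voom called 1726 genes for KO against WT in cTECs and 104 for the difference, with 1 member. The cause of these shifts was not tested. With the replicate block, 11 members and 2094 genes were called for mTEC against cTEC. Same-numbered WT libraries deviated with correlations of -0.152 and -0.0422, and the shared numbers were not read as pairs. Leaving out the KO mTEC library gave 12 members for KO against WT in cTECs and 18 for mTEC against cTEC, and leaving out the KO cTEC library gave 17 for mTEC against cTEC and 0 for KO against WT in mTECs. Both were chosen after seeing the data. With 1 KO library per population, a difference specific to that library cannot be told apart from the genotype.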
